A study of Arabidopsis thaliana with 66 samples.

Results

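IPS1 (INDUCED BY PHOSPHATE STARVATION 1, AT3G09922) is a non-coding RNA of Arabidopsis, and it was taken by its locus identifier as 1 gene of the 27313 genes in the files. Its level was described in roots of 4 genotypes. These were Col-0 and 3 lines known by stock number only, N8507, N8508 and N9416, for which no mutated gene is given in the labels. Plants had spent 14 days on 1 of 6 media: full medium (mock), the same with thorium added (mock+Th), medium lacking phosphate (-P), that medium plus thorium (-P+Th), medium lacking phosphate but holding nano-hydroxyapatite, a particulate calcium phosphate (nanoP), and nanoP plus thorium (nanoP+Th). N8507 and N9416 had all 6 media, Col-0 and N8508 the 5 without mock+Th, which gave 22 groups of 3 RNA-seq libraries. The labels give neither doses, nor the age of the plants, nor whether the 3 libraries of a group came from separate plants, and p-values therefore reflect the spread among these libraries alone.

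Plants short of phosphate switch on a set of genes through the transcription factor PHR1, which SPX proteins hold back while phosphate is plentiful. One branch of this response runs through small RNAs: the microRNA miR399 cuts the messenger of PHO2, a ubiquitin-conjugating enzyme that marks phosphate transporters for destruction. IPS1 and its relative AT4 carry a site that resembles a miR399 target but bulges where the microRNA would cut, so that they bind miR399 and are not cleaved, which is known as target mimicry. IPS1 is widely used as a marker of phosphate starvation in roots.

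The miR399 sequences are shown because the site in IPS1 is read against them. RefSeq (build TAIR10.1) annotates 7 mature sequences, and 6 of them share a seed, bases 2 to 8, here in capitals. miR399b and miR399c-3p are identical in sequence, and miR399c-5p, from the other arm of its hairpin, has another seed.
ath-miR399a: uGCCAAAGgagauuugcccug
ath-miR399b: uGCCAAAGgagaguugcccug
ath-miR399d: uGCCAAAGgagauuugccccg
ath-miR399e: uGCCAAAGgagauuugccucg
ath-miR399f: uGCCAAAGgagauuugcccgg
ath-miR399c-5p: gGGCAUCUuucuauuggcagg

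The sites that pair with them are shown to set the mimics beside the true target. The IPS1 site lies at chr3:3051224-3051247 on the plus strand and the AT4 site at chr5:895149-895172 on the plus strand. Both hold 3 bases more than the microRNA, printed in capitals, which fall opposite the point between miRNA bases 10 and 11. PHO2 (AT2G33770) has 5 sites with no extra base, all outside its coding sequence, of which the site at chr2:14281884-14281904 on the minus strand is printed.
IPS1 site: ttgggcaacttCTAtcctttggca
AT4 site: ttgggcaacttCGAtcctttggca
PHO2 site: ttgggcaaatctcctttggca

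Setting the extra bases aside, the IPS1 site had 3 mismatches to miR399b and miR399c-3p, 4 to miR399a, miR399d and miR399f, and 5 to miR399e. The AT4 site had the same counts, and the PHO2 site printed had 2 mismatches to miR399a, miR399d and miR399f. Mismatches were counted base by base without allowing for G:U pairs.

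IPS1 is annotated as a single exon of 542 bases at chr3:3050989-3051530 on the plus strand. The deposited counts rest on a shorter model of 243 bases, the length of the annotated coding sequence at chr3:3051171-3051413, which leaves 182 bases before it and 117 after it uncounted. The model is printed because every IPS1 value below comes from reads assigned to it. The miR399 site is in capitals.
IPS1 counted model: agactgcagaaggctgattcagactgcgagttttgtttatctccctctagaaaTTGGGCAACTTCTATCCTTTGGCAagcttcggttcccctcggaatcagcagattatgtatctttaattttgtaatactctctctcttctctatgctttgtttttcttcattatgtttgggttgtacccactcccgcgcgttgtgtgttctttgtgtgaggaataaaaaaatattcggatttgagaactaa

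IPS1 and AT4 share a run of 44 bases across this region, chr3:3051237-3051280 in IPS1, so that a read inside it cannot be assigned to either gene by its letters.
run shared by IPS1 and AT4: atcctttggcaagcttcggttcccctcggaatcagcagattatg

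**Figure D1:**
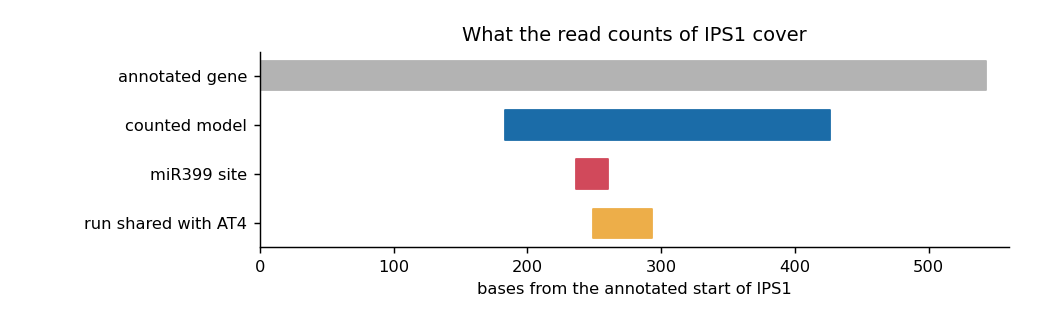
Map of the IPS1 gene in bases from its annotated start, with bars for the annotated gene of 542 bases, the counted model of 243 bases, the miR399 site of 24 bases and the run of 44 bases shared with AT4. The site and the shared run overlap, and both lie inside the counted model.

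The 66 libraries held 9.4 M to 16.76 M reads assigned to genes (median 13.24 M). The 8 root identity genes examined had group means over 1 CPM (reads scaled to library size) in all 22 groups, and the summed level of 12 photosynthesis genes, which would mark green tissue, ran from 9.33 to 71.98 CPM per library. In 3 libraries the effective length of the models was short, with a median of 61.5% of model length in Col-0 -P+Th replicate 1, 57.3% in N8507 -P+Th replicate 3 and 59.2% in N8507 nanoP replicate 3, and IPS1 values without them are given where a call changes. Libraries of Col-0 and N8507 carry numbers 128 to 160 and those of N8508 and N9416 numbers 193 to 225, so library series and genotype cannot be told apart in comparisons between these pairs. The Col-0 -P+Th libraries stood apart from the other Col-0 libraries: 41 loci without expression in those (at most 0.407 CPM in sum) and expressed in the lines (1097 to 2261 CPM) summed to 3.73, 42.1 and 114 CPM in replicates 1, 2 and 3. In the same 3 libraries 9 to 10 of 10 loci expressed only in Col-0 stayed above 5 CPM, and the part of this in the IPS1 results was not tested.

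IPS1 had 2 ranges of expression with a gap between them. In 13 groups it lay between 109 and 1651 CPM in each of the 39 libraries, and in the other 9 groups it did not exceed 5.02 CPM in any of the 27 libraries, of which 5 held no IPS1 read. Every -P and -P+Th group was in the high range, as were both mock+Th groups and, for N8508 alone, the mock, nanoP and nanoP+Th groups. In bulk roots, fewer cells that make IPS1 and less IPS1 per cell cannot be told apart.

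**Figure D2:**
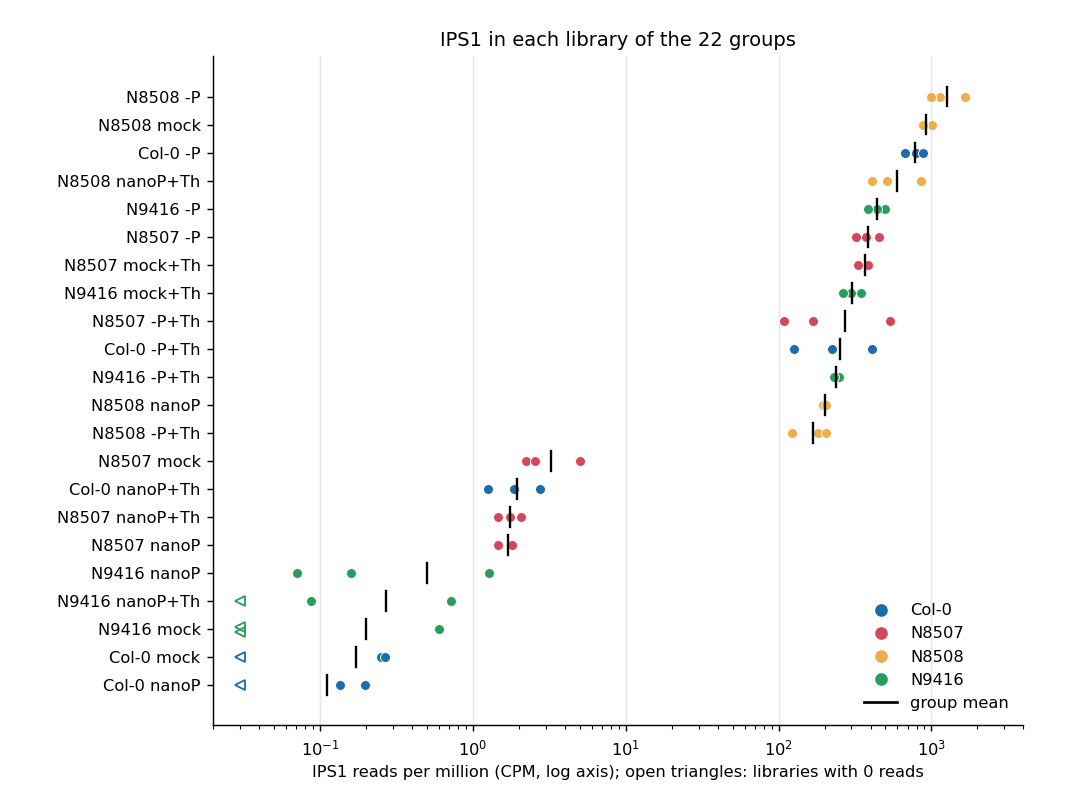
IPS1 in CPM (log axis) in each of the 66 libraries, by group from the highest mean to the lowest, with points coloured by genotype, black bars at the group means and open triangles for the 5 libraries without a read. The 13 groups on the right lie above 100 CPM and the 9 on the left below 6 CPM.

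The highest level was in N8508 on -P, with 1651, 1145 and 995 CPM in replicates 1, 2 and 3, followed by N8508 on mock with 867, 1008 and 879 CPM. Col-0 on -P had 671, 798 and 883 CPM. These 3 groups overlapped in range as neighbours in the order, although full medium had been given in the second of them.

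N8508 on nanoP+Th came next with 411, 514 and 851 CPM. N9416 on -P had 494, 442 and 383 CPM, and N8507 on -P had 321, 376 and 457 CPM. These overlapped each other, and the mock+Th groups followed without a gap.

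N8507 on mock+Th had 391, 384 and 333 CPM, and N9416 on mock+Th had 344, 297 and 266 CPM. N8507 on -P+Th had 109, 169 and 534 CPM, with the high value in the library of low effective length. Col-0 on -P+Th had 408, 126 and 223 CPM, again with the high value in the library of low effective length.

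At the lower end of the high range, N9416 on -P+Th and N8508 on nanoP were tight, and N8508 on -P+Th was less so. N9416 on -P+Th had 229, 251 and 230 CPM, N8508 on nanoP had 201, 197 and 203 CPM, and N8508 on -P+Th had 181, 123 and 204 CPM. N9416 on -P+Th lay above N8508 on nanoP without overlap, the only such gap among neighbours inside the high range.

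Below a step of 51.8-fold came N8507 on mock with 2.21, 2.57 and 5.02 CPM. Col-0 on nanoP+Th had 1.25, 1.87 and 2.76 CPM, N8507 on nanoP+Th 1.74, 2.07 and 1.47 CPM, and N8507 on nanoP 1.46, 1.84 and 1.81 CPM. Each of these 4 groups overlapped its neighbour among them, and the lowest of them lay above the next group without overlap.

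The last 5 groups were near the detection limit, where 3 reads in 1 library stand for 0.204 to 0.290 CPM. N9416 on nanoP held 2, 15 and 1 IPS1 reads, N9416 on nanoP+Th 8, 0 and 1, and N9416 on mock 7, 0 and 0. Col-0 held 4, 0 and 4 reads on mock and 0, 3 and 2 on nanoP. These 5 groups overlapped as neighbours, and over the whole order 18 of 21 neighbouring pairs overlapped.

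Scaled per length (TPM), IPS1 ranked 4 or 5 among all genes in each library of N8508 on -P and on mock. TPM divides by the effective length, 65 to 92 bases for the IPS1 model, which lifts so short a model. The ranks are therefore not ranks by read number. It ranked 5 to 7 in Col-0 on -P and 7 to 8 in N9416 on -P. In Col-0 on mock the rank was 17502 at best.

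The response to phosphate withdrawal depended on the genotype. In Col-0 the mean was 784 ± 107 CPM on -P against 0.172 ± 0.150 CPM on mock (SD, n = 3 each), where 6.61% of genes passed, and in N9416 440 ± 55.5 against 0.201 ± 0.349 CPM, where 38.1% passed. In N8507, where 3.9% passed, IPS1 also rose. In N8508 it was 1264 ± 343 CPM on -P against 918 ± 77.9 CPM on mock, a log2 fold change of 0.47 ± 0.25 (SE) that did not pass (adjusted p = 0.272, edgeR's quasi-likelihood test), where 9.59% of genes passed in either direction. The 2 groups overlapped in N8508 and lay far apart in the other genotypes.

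The difference in response was itself tested. On the log2 scale the change on -P was smaller in N8508 than in Col-0 by a difference of -11.59 ± 0.79 (adjusted p = 2.0e-16; 6.45% of genes passed), and smaller in N8507 than in Col-0 by -5.17 ± 0.86 (adjusted p = 2.83e-05; 5.54% passed). For N9416 against Col-0 the difference was -1.07 ± 1.42 with a 95% interval from -3.85 to 1.71 (adjusted p = 0.776; 7.15% passed), too wide at these read numbers to show that the responses were alike. With 1 library left out it ran from -1.67 to 3.46, reaching beyond that interval. In N8507 the mean was 3.27 CPM on mock, above Col-0, which held 8 reads there, and 384 CPM on -P, below Col-0. The call of this lower N8507 level on -P was lost when any 1 of the 6 -P libraries was left out. The call of the difference in response, -5.17, was kept in all 12 fits with 1 library left out.

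Thorium on full medium raised IPS1 in both lines that received it. In N8507 the libraries had 391, 384 and 333 CPM on mock+Th and 2.21, 2.57 and 5.02 CPM on mock, so the groups did not overlap and the log2 fold change was 6.83 ± 0.53 (adjusted p = 3.31e-07; 11.8% of genes passed). In N9416 the change was 10.46 ± 0.49 (adjusted p = 8.59e-11; 51.7% passed), again without overlap. All 7 IPS1 reads of N9416 on mock were in replicate 1, and without it, against a group with no read, the fitted change was 14.83, which is no bound, and without mock replicate 3 it was 9.87. In N9416 on mock+Th, 5 of 6 tested photosynthesis genes rose and 1 fell (median log2 change 7.18). Of the 12 genes, 7 had no read on mock and 3 none on mock+Th, so fitted changes against groups without a read can enter this median. The summed level of the 12 ran from 24.002 to 71.98 CPM per library against 18.3 to 24.4 CPM on mock. Of 8 root identity genes, 5 rose and 1 fell. In N8507 2 of 6 photosynthesis genes rose, with sums of 22.6 to 52.0 CPM against 10.5 to 19.3 CPM, and the part of these in the IPS1 result was not tested.

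The mock+Th and -P levels of a line were both in the high range, and their difference was not tested. N8507 had 369 ± 31.5 CPM on mock+Th and 384 ± 68.3 CPM on -P, with overlapping libraries, and N9416 302 ± 39.2 and 440 ± 55.5 CPM, where every mock+Th library lay below every -P library. With thorium in both media, -P+Th against mock+Th gave -0.46 ± 0.41 in N8507 (95% interval -1.25 to 0.34, adjusted p = 0.457; 20.6% of genes passed) and -0.32 ± 0.25 in N9416 (95% interval -0.82 to 0.18, adjusted p = 0.415; 18.3% passed). The N8507 value rests on 1 library: without -P+Th replicate 3 it was -1.40 with an adjusted p of 0.00173.

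On phosphate-free medium thorium went with less IPS1. The log2 fold change of -P+Th against -P was -2.89 ± 0.27 in N8508 (adjusted p = 6.1e-07; 47.2% of genes passed), where the lowest -P library had 995 CPM and the highest -P+Th library 204 CPM. In Col-0 it was -1.66 ± 0.37 (adjusted p = 0.00546; 25.4% passed), also without overlap, and -2.20 without the library of low effective length. These Col-0 libraries are the ones that held reads of loci otherwise seen in the lines.

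In N9416 the change was -0.84 ± 0.25 (adjusted p = 0.0142; 40% passed), with 383 CPM in the lowest -P library and 251 CPM in the highest -P+Th library. It did not pass in DESeq2 (adjusted p = 0.548), in a fit of all 66 libraries (adjusted p = 0.0902) or without -P replicate 1 (adjusted p = 0.0506). In N8507 the change was -0.49 ± 0.41 (95% interval -1.29 to 0.30, adjusted p = 0.398; 29.8% passed), and the groups overlapped because replicate 3 of -P+Th, the library of low effective length, stood at 534 CPM. Without that library it was -1.44 with an adjusted p of 7.67e-04.

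Per length the same library stood apart less, at 2079 TPM against 832 and 1125 TPM in the other two, and below the 2215 to 3256 TPM of N8507 on -P. The fall with thorium on -P was smaller in N9416 than in N8508 by 2.01 ± 0.55 on the log2 scale (adjusted p = 0.00672; 17.8% of genes passed). Even where it fell, IPS1 on -P+Th was in the high range in every library. Of the 8 root identity genes, 7 were higher and 1 lower in N9416 in this comparison, where 40% of all genes passed, 3 higher and 1 lower in N8508 (47.2%), 0 higher and 4 lower in N8507 (29.8%) and 0 higher and 1 lower in Col-0 (25.4%). Their part in the IPS1 values was not tested.

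With nano-hydroxyapatite, thorium went with a higher IPS1 level in N8508. The libraries had 411, 514 and 851 CPM on nanoP+Th against 201, 197 and 203 CPM on nanoP, a log2 fold change of 1.57 ± 0.26 (adjusted p = 9.07e-04; 16.4% of genes passed), with no overlap. In Col-0 the libraries had 20, 30 and 39 IPS1 reads on nanoP+Th against 0, 3 and 2 on nanoP. The groups did not overlap, and the change of 3.97 ± 0.80 did not pass over all genes tested (adjusted p = 0.102; 0.105% passed). It ran from 3.48 to 4.60 with 1 library left out, the latter without nanoP replicate 2. It passed in DESeq2 (adjusted p = 7.18e-05), in a fit of all 66 libraries (0.0155) and without the library of low effective length or the whole -P+Th group in the fit (0.0171 and 0.0115).

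N8507 had 1.76 ± 0.299 CPM on nanoP+Th and 1.70 ± 0.209 CPM on nanoP, a change of 0.07 ± 0.52 (95% interval -0.94 to 1.09, adjusted p = 0.973; 4.65% of genes passed), or 0.098 without the nanoP library of low effective length. N9416 was near the detection limit on both media (change -0.78 ± 1.04, adjusted p = 0.646; 21.7% passed). Whether the rise in N8508 differed from the values in the other genotypes was not tested.

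In N8508 the thorium effect was negative on -P and positive with nanoP. The effect on -P minus that with nanoP was -4.46 ± 0.37 in N8508 (adjusted p = 5.65e-07; 28.8% of genes passed). In Col-0 it was -5.63 ± 0.86 (adjusted p = 9.82e-04; 7.72% passed), and -6.26 without Col-0 nanoP replicate 2. The Col-0 value uses 5 IPS1 reads on nanoP and the -P+Th libraries that held reads of loci otherwise seen in the lines. The difference was -0.57 ± 0.66 in N8507 (adjusted p = 0.578; 24% passed) and -0.06 ± 1.90 in N9416 (adjusted p = 0.988; 20.4% passed). An SE taken from F is unreliable at so small a value. Those of the N9416 thorium effects on -P and with nanoP were 0.25 and 1.04. The N8507 difference was -1.50 with an adjusted p of 0.0146 without -P+Th replicate 3.

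**Figure D3:**
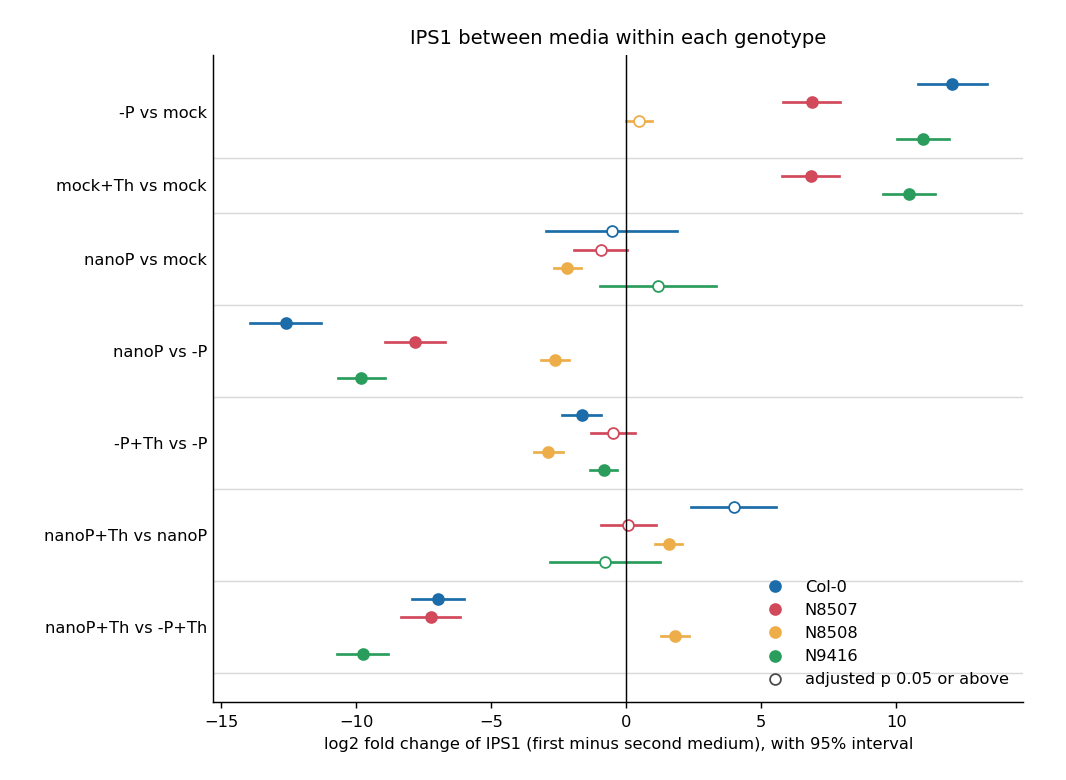
Log2 fold change of IPS1 between media within each genotype, with 95% intervals, where filled points had an adjusted p under 0.05 and open points did not. The mock+Th changes lie at 6.83 and 10.46, the -P+Th changes between -2.89 and -0.49, and the nanoP+Th against -P+Th change of N8508 lies to the right of 0 while those of the other genotypes lie at -6.99 or below.

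Under thorium, nano-hydroxyapatite was accompanied by low IPS1 in Col-0, N8507 and N9416 and by a higher level in N8508. Against -P+Th the change on nanoP+Th was -6.99 ± 0.49 in Col-0 (adjusted p = 1.86e-07; 37.7% of genes passed), -7.25 ± 0.55 in N8507 (adjusted p = 6.47e-08; 36% passed) and -9.76 ± 0.48 in N9416 (adjusted p = 1.14e-10; 44.8% passed). The Col-0 value uses the -P+Th libraries that held reads of loci otherwise seen in the lines. The N8507 value was -6.30 without the library of low effective length, and the N9416 value was -12.11 without nanoP+Th replicate 1, which held 8 of the 9 reads of its group. Against mock+Th, nanoP+Th gave -7.71 ± 0.56 in N8507 (adjusted p = 1.19e-07; 13.8% passed) and -10.08 ± 0.48 in N9416 (adjusted p = 1.16e-10; 30.3% passed), the latter -12.43 without the same replicate.

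In N8508 the change was 1.80 ± 0.26 (adjusted p = 3.66e-05; 49.1% passed): the lowest nanoP+Th library had 411 CPM and the highest -P+Th library 204 CPM. The order of the 5 N8508 media therefore ran from -P and mock through nanoP+Th to nanoP and -P+Th. The last pair, nanoP and -P+Th, overlapped in range.

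From -P to nanoP without thorium IPS1 fell in every genotype, where the genes that passed were 6.1% for Col-0, 4.49% for N8507, 30.2% for N9416 and 38% for N8508. N8508 on nanoP stayed high, and its IPS1 level there was 4.55-fold under that of its own mock (log2 fold change -2.19 ± 0.26, adjusted p = 2.29e-05; 28.9% of genes passed). In N8507 nanoP against mock gave -0.95 ± 0.50 (95% interval -1.93 to 0.025, adjusted p = 0.393; 3.05% passed), and each nanoP library lay below each mock library. The change was -0.55 ± 1.23 in Col-0 (adjusted p = 0.982; 0.562% passed) and 1.16 ± 1.10 in N9416 (adjusted p = 0.542; 14.4% passed), where the libraries overlapped. Without Col-0 nanoP replicate 2, which held 3 of 5 reads, the next 2 differences were 10.57 and 5.42. The fall from -P to nanoP was smaller in N8508 than in Col-0 by 9.95 ± 0.82 (adjusted p = 2.03e-13; 13% passed) and smaller in N8507 than in Col-0 by 4.79 ± 0.99 (adjusted p = 0.00183; 2.62% passed). For N9416 against Col-0 the difference was 2.78 ± 1.23 and did not pass (adjusted p = 0.282; 2.78% passed). It was 0.81 without N9416 nanoP replicate 2 and 3.41 without Col-0 nanoP replicate 2.

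Genotypes were also compared on the same medium. In N8508 it was higher than in Col-0 by 12.28 ± 0.70 on mock (adjusted p = 5.46e-20; 27.2% of genes passed), by 10.64 ± 0.71 on nanoP (adjusted p = 1.9e-17; 35.9% passed) and by 8.24 ± 0.55 on nanoP+Th (adjusted p = 2.2e-17; 36.4% passed), without overlap in any of them. Without Col-0 nanoP replicate 2 the nanoP difference was 11.27. On -P the difference was 0.69 ± 0.39 (95% interval -0.07 to 1.45, adjusted p = 0.221; 21.3% passed). The large differences between these genotypes were on mock, nanoP and nanoP+Th.

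N9416 and N8508 come from the same library series. The N9416 minus N8508 difference was -12.05 ± 0.70 on mock (adjusted p = 2.13e-19; 22.3% of genes passed), -8.70 ± 0.61 on nanoP (adjusted p = 5.35e-16; 23.1% passed) and -11.07 ± 0.68 on nanoP+Th (adjusted p = 2.42e-18; 10.3% passed). On -P it was -1.52 ± 0.39 (adjusted p = 0.00415; 14.7% passed), and on -P+Th it was 0.48 ± 0.39 (adjusted p = 0.359; 34.6% passed). The N9416 reads are few: the mock difference was -16.58 without N9416 mock replicate 1 and -11.45 without replicate 3, that on nanoP -10.67 without nanoP replicate 2, and that on nanoP+Th -13.46 without nanoP+Th replicate 1. The high IPS1 level of N8508 on full medium was also present against a line of its own series.

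N8507 and Col-0 also share a library series. N8507 had 35, 39 and 72 IPS1 reads on mock against 4, 0 and 4 in Col-0, a difference of 4.15 ± 0.76 (adjusted p = 1.7e-05; 36.1% of genes passed), and it was higher by 3.77 ± 0.92 on nanoP (adjusted p = 0.00132; 27.4% passed), or 4.39 without Col-0 nanoP replicate 2. On nanoP+Th the difference was -0.14 ± 0.54 (adjusted p = 0.874; 34.1% passed). On -P N8507 was lower, with a difference of -1.03 ± 0.39 and 457 CPM in its highest library against 671 CPM in the lowest of Col-0 (adjusted p = 0.0424; 27.1% passed), and this call was lost when any 1 of the 6 libraries was left out (adjusted p from 0.0510 to 0.141).

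N9416 against Col-0 gave a lower level on nanoP+Th and no passed difference on the other media tested. The difference was 0.24 ± 1.302 on mock (95% interval -2.31 to 2.79, adjusted p = 0.914; 31.8% of genes passed) and -0.83 ± 0.39 on -P (adjusted p = 0.117; 24.1% passed). With 1 library left out the mock difference ran from -4.29 to 0.84, reaching beyond its interval. On -P every N9416 library, 494 CPM at most, lay below every Col-0 library, and the difference passed without the libraries of low effective length (-0.85, adjusted p = 0.0159). It was 1.94 ± 1.17 on nanoP (adjusted p = 0.233; 26.3% passed). On nanoP+Th N9416 was lower, with a difference of -2.82 ± 0.81 (adjusted p = 0.00681; 25.5% passed). That value rests on 9 reads, and without nanoP+Th replicate 2 the adjusted p was 0.0568, while without replicate 1 the difference was -5.19.

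AT4 (AT5G03545), the other known mimic of miR399, followed IPS1 across the groups but was never silent. Its mean ran from 15.5 CPM in Col-0 on nanoP to 1543 CPM in N8508 on -P, and its lowest library had 5.36 CPM. Per length AT4 exceeded IPS1 in all 66 libraries, by 1.48 to 4.94 times (TPM) in the 13 groups of high IPS1 and by 16.7 to 462 times in the libraries of the other groups that held an IPS1 read.

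AT4 rose on mock+Th by 3.46 ± 0.41 in N8507 (adjusted p = 2.83e-05) and by 5.05 ± 0.21 in N9416 (adjusted p = 1.16e-11), a smaller log2 change than that of IPS1 in the same libraries. On -P+Th against -P, AT4 fell in N8508 by 2.15 ± 0.22 (adjusted p = 2.06e-06) and in N9416 by 0.69 ± 0.17 (adjusted p = 0.00384), while the changes of -0.62 ± 0.48 in Col-0 (adjusted p = 0.359) and -0.62 ± 0.38 in N8507 (adjusted p = 0.241) did not pass. Without the libraries of low effective length AT4 changed in N8507 by -1.27 ± 0.28 (adjusted p = 0.00225), and the Col-0 value was -1.24 ± 0.48 (adjusted p = 0.080). With nanoP, thorium went with more AT4 in N8508 (1.13 ± 0.22, adjusted p = 0.00293) and N9416 (0.60 ± 0.19, adjusted p = 0.0302). AT4 had 15.5 CPM on nanoP and 67.1 CPM on nanoP+Th in Col-0 (2.11 ± 0.51, adjusted p = 0.216). In N8507 it had 139 CPM on nanoP and 70.2 CPM on nanoP+Th (-0.95 ± 0.38, adjusted p = 0.189). Without the nanoP library of low effective length this change was -0.63 ± 0.27 (adjusted p = 0.150). The libraries did not overlap in either genotype.

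IPS1 held 0.270 to 0.906 reads per AT4 read in the libraries of the high range, and 0.00293 to 0.0785 in those of the low range that held an IPS1 read. The part of the shared run of 44 bases in these few reads was not tested.

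PHO2, the messenger that miR399 cuts, had no steady relation to IPS1 over the 22 groups (Spearman's rho -0.375 of the group means, as a description). In N9416 it fell where IPS1 rose: by 1.55 ± 0.13 on -P (adjusted p = 9.38e-08) and by 2.53 ± 0.13 on mock+Th (adjusted p = 3.08e-10), from 1263 CPM on mock. In Col-0 PHO2 fell by 1.59 ± 0.27 on -P (adjusted p = 0.00169), from 1118 to 369 CPM.

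N8507 departed from this. Its PHO2 mean on mock was 54.7 CPM, lower than in Col-0 by a log2 difference of -4.35 ± 0.34 (adjusted p = 5.6e-15), and on mock+Th PHO2 rose by 2.34 ± 0.47 (adjusted p = 0.00293) in the libraries where IPS1 rose. On nanoP and nanoP+Th the N8507 means of PHO2 were 67.9 and 39.3 CPM with IPS1 in its low range, and the nanoP library of low effective length had the lowest of the nanoP values, 27.9 against 84.6 and 91.2 CPM. PHO2 and IPS1 were thus both low in these N8507 libraries, unlike any library of Col-0 or N9416.

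In N8508 the PHO2 means ran from 258 CPM on -P+Th to 551 CPM on nanoP. It had 423 CPM on mock and 300 CPM on -P (change -0.49 ± 0.09, adjusted p = 0.00298), and 388 CPM on nanoP+Th against nanoP (change -0.51 ± 0.09, adjusted p = 0.00184). On mock PHO2 in N8508 was below Col-0 by a log2 difference of -1.40 ± 0.30 (adjusted p = 2.4e-04). The 6 miR399 precursor loci were not analysed here.

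**Figure D4:**
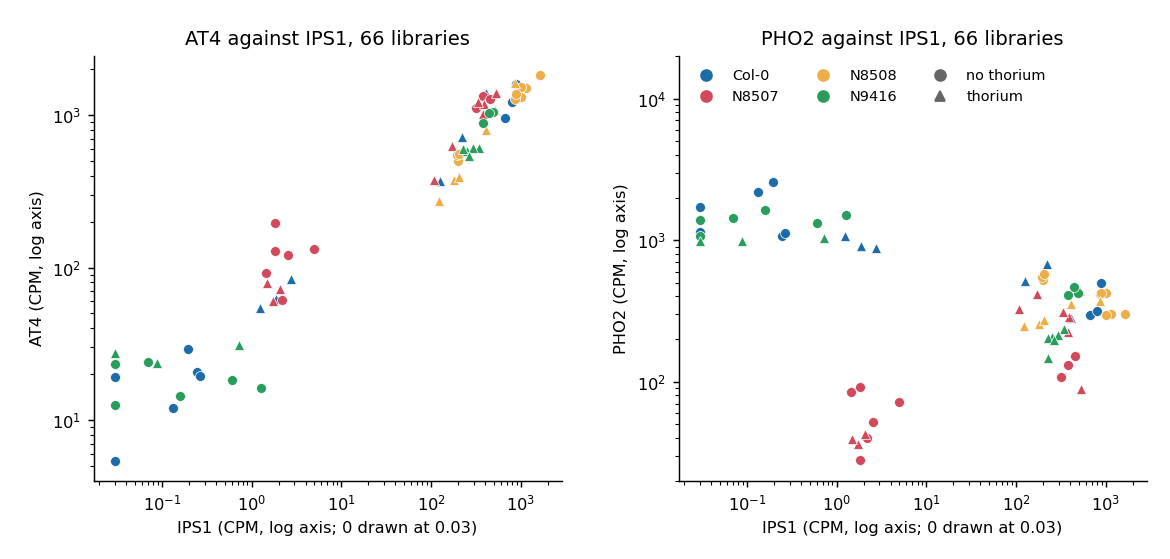
AT4 (left) and PHO2 (right) against IPS1 in each of the 66 libraries, in CPM on log axes, coloured by genotype, with triangles for thorium. AT4 rises with IPS1 from 5.36 CPM upward, while in the PHO2 panel the N8507 libraries of low IPS1 lie under 100 CPM and those of Col-0 and N9416 at 883 CPM or more.

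The genes whose pattern was most like that of IPS1 were ranked by Spearman's rho of the 22 group means of log2 CPM, over 17999 genes with at least 5 CPM in their highest group. AT4 came first (rho 0.965), a value to which shared reads can add. After it came AT5G20790 (0.953), UGP3, a UDP-glucose pyrophosphorylase (0.948), AT5G08570 (0.948), the annexin ANNAT1 (0.938), AT3G56130 (0.933), AT2G37890 (0.932), AT5G17340 (0.932), the glycerophosphodiester phosphodiesterase GDPD3 (0.931) and AT4G17790 (0.923). Groups share libraries' series, genotype and media, so rho is given as a description, and without the Col-0 -P+Th group 9 of these 10 genes were again in the first 10.

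By Pearson's r, 2 of the 10 were again in the first 10. Of the 10, AT5G20790 moved over a range like that of IPS1: it held no read in Col-0 on nanoP, reached 1044 CPM in N8508 on -P and rose on mock+Th by 5.75 ± 0.34 in N8507 (adjusted p = 1.41e-08) and 10.55 ± 0.41 in N9416 (adjusted p = 7.49e-12). AT3G56130 had nearly the same order of groups within a narrow range, from 72.7 to 149 CPM. ANNAT1 had 154 CPM in its lowest group and 2249 CPM in N8508 on -P.

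Of the other genes named throughout, PECP1, a phosphatase of phosphoethanolamine and phosphocholine, ranked 29 in likeness (rho 0.889), the SPX sensor gene SPX1 ranked 36 (0.879) and the phosphate transporter gene PHT1;4 ranked 151 (0.793). PHO2 ranked 16129.

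**Figure D5:**
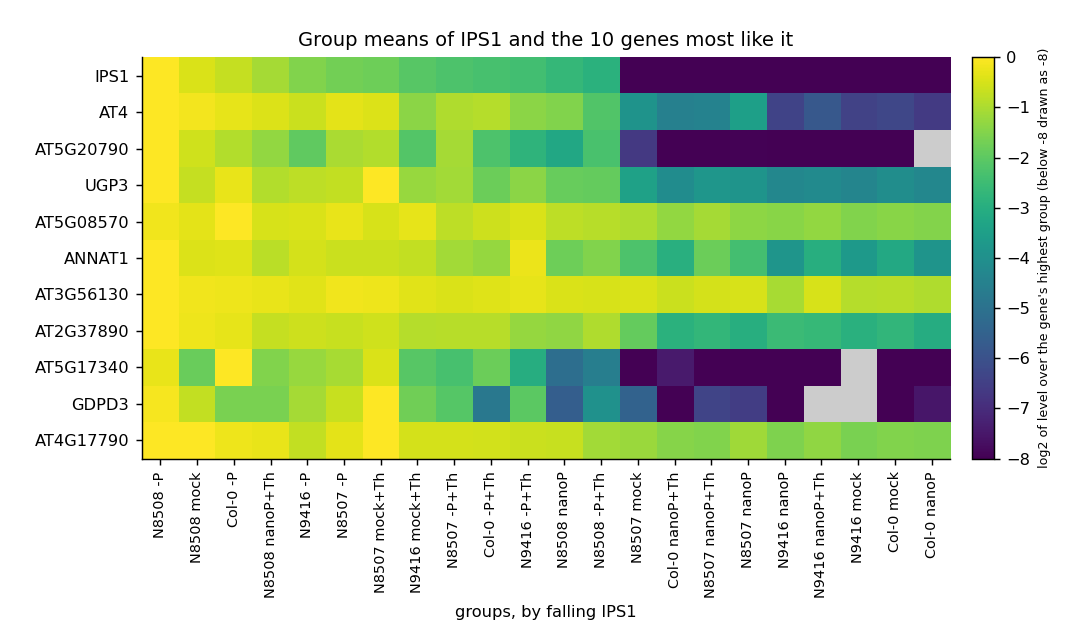
Group means of IPS1 and the 10 genes most like it, each as log2 of the level over that gene's highest group, with groups ordered by falling IPS1. Values below -8 are drawn as -8 and grey marks a mean of 0, and the step after the 13 groups of high IPS1 is seen in AT4, AT5G20790 and AT5G17340 and is shallow in AT3G56130 and AT5G08570.

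The surrounding pathway was described with 41 further genes of the files in 4 lists: AT4 and PHO2, 7 PHR1 and SPX regulators, 13 transport genes and 19 enzymes of phosphate release and lipid remodelling. On mock+Th in N8507, 33 of 40 tested rose and 0 fell, with a median log2 change of 3.98 against -0.01 over all genes, of which 8.22% rose and 3.59% fell. In N9416, 30 rose and 5 fell, with medians of 2.85 and 0.03, where 27.2% of all genes rose and 24.5% fell. All 19 enzymes rose in N8507 and 16 in N9416.

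By the fitted change, the leading list genes in N8507 included the acid phosphatase gene PAP23 and the phosphate transporter gene PHT1;7, which had no read on mock, so that their place in the order is uncertain, and rose by at least 8.44 and 8.05 on the log2 scale (floor of 3 reads over the group). PECP1 rose by 9.53 ± 0.38 (adjusted p = 1.8e-10) and PS2, a phosphatase, by 7.50 ± 0.44 (adjusted p = 1.11e-08). In N9416 PAP23 and PHT1;7 again had no read on mock and rose by at least 6.07 and 4.67, with PS2 at 8.75 ± 0.53 (adjusted p = 1.47e-09) and PECP1 at 7.27 ± 0.26 (adjusted p = 2.41e-12). SPX1 rose by 4.39 ± 0.27 in N8507 (adjusted p = 1.59e-08) and by 4.76 ± 0.15 in N9416 (adjusted p = 7.02e-13).

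On -P, thorium lowered most list genes where it lowered IPS1. In N8508 34 of 40 fell and 1 rose (median -1.38), in N9416 27 fell and 0 rose (median -0.69), and in Col-0 23 of 39 fell and 0 rose (median -0.77), against medians over all genes of 0.01, -0.0019 and -0.02 in the same order. Over all genes 23.9% fell in N8508, 19.9% in N9416 and 13.5% in Col-0. In N8507, where the IPS1 change did not pass, 9 rose and 11 fell (median -0.0021), against 15.9% and 13.9% of all genes. Without the libraries of low effective length 14 rose and 11 fell in N8507, where 36.5% of all genes passed, and 1 rose and 24 fell in Col-0, where 23.2% passed. The Col-0 counts, like the Col-0 changes that follow, use the -P+Th libraries that held reads of loci otherwise seen in the lines.

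In N8508 the largest falls of the list included those of some transporter genes: PHT1;3 changed by -11.20 ± 0.46 (adjusted p = 3.13e-10), PHT1;2 by -8.60 ± 0.37 (adjusted p = 3.33e-10) and PHT1;9 by -3.60 ± 0.24 (adjusted p = 1.93e-08), against -2.89 for IPS1. The median over the 12 tested transport genes was -2.12, and PHT1;4 went from 574 CPM on -P to 376 CPM on -P+Th. In Col-0 PAP23 changed by -5.08 ± 0.81 (adjusted p = 0.00294) and PHT1;2 by -4.01 ± 0.28 (adjusted p = 6.32e-07). PHT1;1, PHT1;2 and PHT1;3 are near-identical copies whose reads can be split between them, so their separate values are uncertain.

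With nanoP in N8508, thorium raised 22 of 40 list genes and lowered 3 (median 0.76 against 0.02 over all genes), where 9.22% of all genes rose and 7.18% fell. The leading genes were PHT1;7 (3.99 ± 0.59, adjusted p = 4.32e-04), PAP24 (3.03 ± 0.33, adjusted p = 4.84e-05), PECP1 (2.92 ± 0.34, adjusted p = 7.54e-05) and SPX3 (2.14 ± 0.27, adjusted p = 1.27e-04). In Col-0 1 of 39 rose and 0 fell (0.105% of all genes passed), in N8507 1 rose and 1 fell of 40 (4.65%), and in N9416 4 rose and 8 fell of 40 (21.7%).

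Under thorium, nanoP+Th against -P+Th gave 29 list genes lower and 6 higher of 39 in Col-0, 30 and 6 of 40 in N8507, and 29 and 6 of 40 in N9416. Their medians were -2.07, -3.46 and -3.16, where 18.9%, 19.7% and 23% of all genes were lower and 18.7%, 16.4% and 21.8% higher. Col-0 on -P+Th is again the group that held reads of loci otherwise seen in the lines. In N8508 8 were lower and 21 higher (median 0.31), where 25.2% of all genes were higher and 23.9% lower. There PHT1;3 (8.30 ± 0.50, adjusted p = 5.76e-09) and PHT1;2 (6.23 ± 0.34, adjusted p = 1.97e-09) had the largest positive changes of the list, while RNS1, a ribonuclease gene, fell by 6.00 ± 0.45 (adjusted p = 5.19e-08).

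On mock, N8508 had 31 of 40 list genes higher than Col-0 and 2 lower (median 2.44 against 0.02 over all genes), where 14.8% of all genes were higher and 12.4% lower. PAP24, PAP23 and PHT1;7 had no read in Col-0 on mock and were higher in N8508 by at least 8.66, 8.16 and 7.24 on the log2 scale, and PECP1 was higher by 10.17 ± 0.51 (adjusted p = 7.33e-22). In N8507, where IPS1 was higher than in Col-0 by 4.15, 17 list genes were higher and 9 lower (median 0.29), against 18.1% and 18% of all genes, and PHT1;2 was lower by a log2 difference of -3.88 ± 0.35 (adjusted p = 4.67e-13). In N9416 6 were higher and 11 lower (median -0.11), against 15.8% and 16% of all genes.

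The promoters were searched for GNATATNC, the binding motif of PHR1, which reads the same on both strands, in the 250 bases before and 50 after each annotated start. The motif was present in 6.3% of 27443 promoters and in 19 of the 41 list genes (46.3%). The IPS1 window at chr3:3050739-3051038 held no match, and its annotated start is marked partial, so the window may not be where transcription begins. The AT4 window at chr5:894332-894631 held 1 match, printed in capitals.
IPS1 promoter: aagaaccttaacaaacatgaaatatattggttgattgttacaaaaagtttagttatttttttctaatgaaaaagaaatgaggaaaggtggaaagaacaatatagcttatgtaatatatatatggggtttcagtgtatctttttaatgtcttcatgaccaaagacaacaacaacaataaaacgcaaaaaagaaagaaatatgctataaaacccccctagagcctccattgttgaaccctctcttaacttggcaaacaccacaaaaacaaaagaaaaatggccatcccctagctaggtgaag
AT4 promoter: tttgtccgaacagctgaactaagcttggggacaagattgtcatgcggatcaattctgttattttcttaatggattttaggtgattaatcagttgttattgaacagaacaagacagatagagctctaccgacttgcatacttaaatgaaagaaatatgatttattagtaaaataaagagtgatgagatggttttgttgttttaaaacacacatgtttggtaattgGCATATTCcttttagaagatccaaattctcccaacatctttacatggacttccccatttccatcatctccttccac

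The genes on either side of IPS1 were described by their changes on mock+Th. AT3G09925, on the minus strand with its end 78 bases beyond IPS1, ran from 2.75 to 58.2 CPM over the groups, and its change on mock+Th was 0.16 ± 0.45 in N8507 (adjusted p = 0.886) and 1.35 ± 0.39 in N9416 (adjusted p = 0.0074). PIP5K9, 5999 bases before IPS1 on the minus strand, had 55.3 CPM in N8507 on mock and 64.9 CPM on mock+Th (change 0.24 ± 0.26, adjusted p = 0.644), and in N9416 it fell by 0.76 ± 0.12 on mock+Th (adjusted p = 3.92e-05).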

How the data were processed

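The submitters' processing notes name Trimmomatic, a read trimmer, Salmon 1.3.0, a transcript quantifier, and the build TAIR10. The deposited files hold, per the file headers, estimated counts of reads per transcript model and TPM as the authors' Salmon run gave them. For each gene the estimated counts of its models were added up and rounded to whole numbers. TPM served for comparisons between genes and, for IPS1 in N8507 on -P and -P+Th, for a comparison between libraries. How strand was read is not given in the sources used here, and 94.4% of the 32875 models had the length of an annotated coding sequence.

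Counts were fitted with edgeR 4.0.16 in R 4.3.3 (TMM, filterByExpr by group, quasi-likelihood F-test, two-sided, Benjamini-Hochberg adjustment over all genes tested). Each genotype had its own fit (19762 to 20241 genes), and comparisons across genotypes used all 66 libraries (20839 genes). The threshold was an adjusted p of 0.05, and there were 60 IPS1 comparisons. CPM uses the TMM library size of the 66 libraries. The SE is the absolute log2 fold change over the square root of F, and a log2 fold change of a gene at a few reads depends on the prior count of 0.125. The script recovered changed genes in data simulated for Col-0 -P against mock. Those genes had more reads than IPS1 has in its low Col-0 groups, and far smaller fold changes. The simulation therefore does not bear on IPS1 tests that involve groups of few reads.

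IPS1, the lists and the comparisons were chosen with earlier results of these data known. Always named were IPS1, AT4, PHO2, SPX1, PHT1;4 and PECP1, then the 10 genes most like IPS1, up to 4 list genes with the largest called change in a comparison, and 1 neighbour on each side. Genomic positions and sequences come from RefSeq TAIR10.1; the files name TAIR10 and hold no coordinates. No 2 libraries were identical (highest correlation 0.9959).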

Additional observations from a re-analysis of the deposited data

Results flagged for a closer look

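The change of IPS1 under the same contrast differed between genotypes or media by the test of the difference itself in 9 cases, all on the log2 scale from edgeR's quasi-likelihood test. For the response to -P these were N8507 minus Col-0 (-5.17), N8508 minus Col-0 (-11.59) and N9416 minus N8508 (10.52, adjusted p = 1.18e-14). For the response to nanoP on phosphate-free medium they were N8507 minus Col-0 (4.79), N8508 minus Col-0 (9.95) and N9416 minus N8508 (-7.17, adjusted p = 1.29e-10). The thorium effect on -P minus that with nanoP was -5.63 in Col-0 and -4.46 in N8508, and the thorium effect on -P differed between N9416 and N8508 by 2.01. The Col-0 value uses the -P+Th libraries with reads of loci otherwise seen in the lines. The N9416 minus N8508 values were 15.05 for -P without N9416 mock replicate 1, 9.92 without mock replicate 3, and -9.14 for nanoP without N9416 nanoP replicate 2.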

How the results depend on the processing

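Of 60 IPS1 comparisons, 40 passed, and 37 of these kept their direction and side of the threshold under every alternative run. Library size without TMM and no filter on low counts changed no call. Another prior count was applied to the fold change only, with the p-values of the main fit, so it could not change a call. For the thorium change with nanoP in Col-0, DESeq2 gave 4.09, the fit of all 66 libraries 3.96, and the fits without libraries of low effective length and without the Col-0 -P+Th group 3.96, all past the threshold. Without libraries of low effective length, N8507 -P+Th against -P (-1.43), -P+Th against mock+Th (-1.38), its thorium effect on -P minus that with nanoP (-1.53) and N9416 against Col-0 on -P (-0.85) also passed. The change of N9416 on -P+Th against -P did not pass in DESeq2 (-0.85) or the fit of all libraries (-0.89), nor did N8507 against Col-0 on -P with only the genotypes compared (-1.02). DESeq2 gave the N9416 thorium effect on -P minus that with nanoP the other sign (0.035).

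With 1 library left out, the ranges of the comparisons whose call or sign changed were: N8507 -P+Th against -P, -1.44 to -0.12; N8507 nanoP+Th against nanoP, -0.074 to 0.16, with a value of -0.021; N8507 -P+Th against mock+Th, -1.40 to -0.085; the N8507 thorium difference, -1.50 to -0.20; N9416 nanoP against mock, -0.81 to 5.53; N9416 -P+Th against -P, -0.93 to -0.76; N9416 nanoP+Th against nanoP, -3.13 to 1.19; the N9416 thorium difference, -2.03 to 2.29, with values of 0.036, 0.34 and 0.51. Between genotypes they were: N9416 against Col-0 on mock, -4.29 to 0.84, with a value of -0.30; N8507 against Col-0 on -P, -1.16 to -0.92; N9416 against Col-0 on nanoP, -0.028 to 2.58; N8507 against Col-0 on nanoP+Th, -0.36 to 0.20; N9416 against Col-0 on nanoP+Th, -5.19 to -2.25; and the response to -P of N9416 minus Col-0, -1.67 to 3.46. The cause was not tested.

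The planned limit of 70% of effective length would have left out every library, so 62%, chosen after seeing the data, was used. No paired analysis was possible because the labels give library numbers and no replicate numbers shared by groups.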
